A study of Homo sapiens with 14 samples.

Results

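Gene expression was compared between liproxstatin-1 and ferrostatin-1, a pair of ferroptosis inhibitors, in HT-29 cells exposed to TNF. HT-29 is an established human colorectal carcinoma line, labelled wild type. TNF with 20 uM liproxstatin-1 (2 libraries) was set against TNF with 20 uM ferrostatin-1 (3 libraries), so 5 of the 14 libraries of the series were chosen, by their labels and count columns. Cells were treated for 72 h, and the TNF concentration is printed as 100 ug/ml in the labels. The same pair of compounds was also available without TNF, as 2 libraries of liproxstatin-1 and 2 of ferrostatin-1, and levels are also given for TNF alone (2 libraries) and for control cells in medium with 0.1% DMSO (3 libraries), the sole group whose labels name that solvent. One pair of compounds was compared, at 1 dose and 1 time. The question the study set was why these inhibitors act differently while TNF drives the cells into apoptosis.

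Ferroptosis is death by iron-dependent peroxidation of membrane lipids, and both compounds trap the radicals that carry that peroxidation forward. Ferrostatin-1 is an aromatic amine with an ethyl ester and a cyclohexylamino group, whereas liproxstatin-1 is built on a quinoxaline joined to a spiro piperidine ring and carries a chlorobenzyl group. TNF acts on epithelial cells through its receptor to switch on NF-kB target genes and, where survival signals are too weak, caspases. Among the systems described here are the aryl hydrocarbon receptor (AHR), a sensor of flat aromatic molecules that switches on xenobiotic-metabolizing enzymes, and the SREBP factors, which drive sterol and fatty acid synthesis when membrane sterol is low.

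The 5 libraries held 59913850 to 70790640 counts each, and 22179 genes passed the filter on low counts. Log2 levels correlated across genes at 0.9952 to 0.9962 within the groups and at 0.9931 to 0.9941 between them. No pair was alike within sampling noise (chi-square per degree of freedom of at least 12.2 within groups). The design text calls the replicates technical, so p-values may measure no more than the spread between such samples. The libraries showed epithelial markers. The summed level of 11 markers was 11140 to 11310 normalized CPM (counts per 1000000 of a library's total after scaling) with TNF and liproxstatin-1, against 9393 to 10230 with TNF and ferrostatin-1. Most of that sum came from the keratins KRT8 (5981 and 5731, against 5339, 5016 and 4788) and KRT18 (3265 and 3376, against 2922, 2755 and 2735). Of the 11 differences 9 were positive and 2 negative, those of CEACAM5 (5 and 5.05, against 7.25, 6.39 and 6.38) and KRT20 (338 and 330, against 382, 378 and 329). CDX2, a colonic transcription factor, had 7.17 and 7.42 CPM, against 5.94, 4.45 and 4.44. CDX1, another, stayed under 1 CPM (0.359 and 0.272, against 0.288, 0.166 and 0.189). The leukocyte marker PTPRC was at 0 in all 5 libraries, and 9 leukocyte markers of 13 listed summed to 53.5 to 54.9 CPM, against 47.9 to 53.8. Fibroblast markers (10 of 10) summed to 8.23 to 17.2 CPM, against 4.68 to 8.07, and endothelial markers (8 of 8) to 59.2 to 106 CPM, against 63.9 to 105. The higher fibroblast sum was that of library 2 of TNF with liproxstatin-1, in which the collagen gene COL1A2 had 2.11 CPM while it was at 0 in the other 4 libraries, and its part in the results was not tested. In bulk RNA, fewer cells of a kind and less RNA per cell cannot be told apart.

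Liproxstatin-1 and ferrostatin-1 left TNF-treated cells with different levels of 170 genes, of which 151 were higher and 19 lower with liproxstatin-1. Differences that held their call without any 1 library included the AHR targets CYP1A1, CYP1B1 and ALDH1A3, the amino acid transporter SLC6A20, the mucin MUC13 and the fatty acid desaturase SCD. Calls rest on edgeR's quasi-likelihood test at a Benjamini-Hochberg adjusted p under 0.05, over all genes tested. The 170 calls are 0.766% of the 22179 genes, with 0.681% higher and 0.0857% lower, and 71 of them (0.32%) differed at least 2-fold, 60 higher and 11 lower. An unadjusted p under 0.05 was reached by 1908 genes (8.6%). All 170 had levels that did not overlap between the groups, as did 33.9% of all genes tested. The smallest called difference was 0.37 on the log2 scale, and the median standard error was 0.175 among the 14933 genes with a mean count of at least 50, so small differences were not detectable at this number of libraries.

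**Figure D1:**
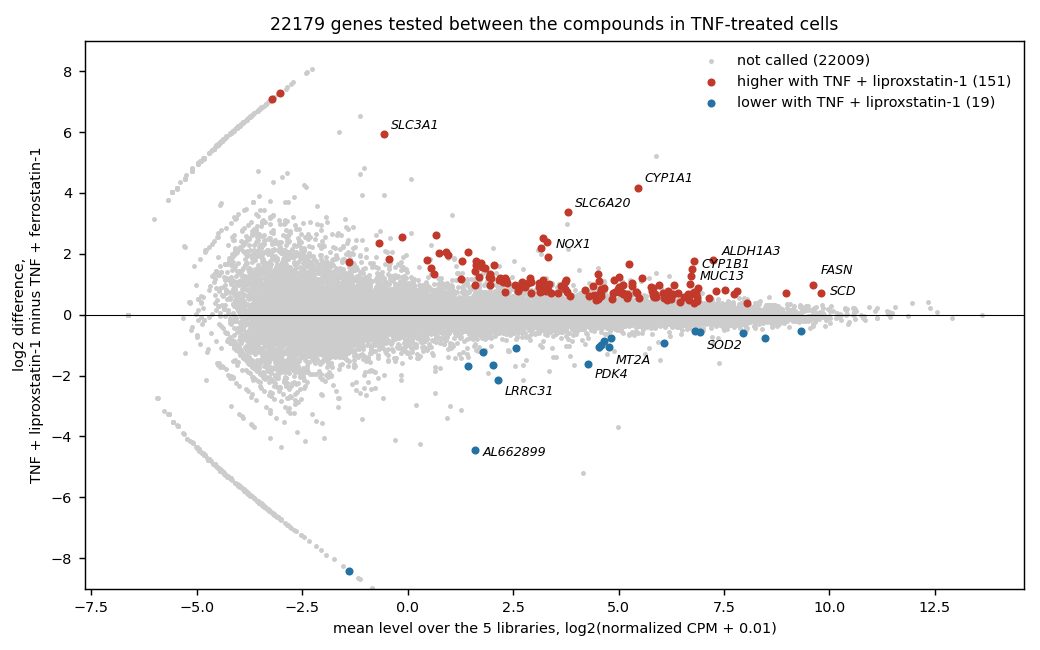
Log2 difference (TNF with liproxstatin-1 minus TNF with ferrostatin-1, vertical axis) against mean level over the 5 libraries (log2 of normalized CPM plus 0.01, horizontal axis) for each gene tested. Red points are the 151 genes called higher with TNF and liproxstatin-1, blue points the 19 called lower, grey points the 22009 genes not called, and 7 genes lie beyond the vertical range; curved rows at low levels are genes with 0 counts in a group, and CYP1A1 and SLC6A20 stand above the other called genes of similar level.

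How far the calls depended on single libraries differed between genes. Leaving out 1 of the 5 libraries at a time lowered the number of calls to 65, 46 and 52 without ferrostatin-1 library 1, 2 and 3 of the TNF-treated cells, and to 26 and 31 without liproxstatin-1 library 1 and 2. All 170 genes kept their direction in each of these 5 fits. That outcome was largely set in advance, since their levels did not overlap between the groups. A set of 19 genes was called in all 5 of them, and these were ALDH1A3, ATP2A3, CLEC3A, CYP1A1, CYP1B1, DHRS2, F2R, IGFL2-AS1, KCNF1, LRRN4, MUC13, MYO7B, PIK3AP1, PRSS23, SCD, SLC6A20, STX3, UAP1L1 and VIPR1. At the other end, 97 genes lost their call whichever library was left out. Below, a gene is called stable where it belongs to the 19, and every other called gene lost its call in at least 1 of the 5 fits.

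CYP1A1, an AHR-driven monooxygenase that oxidizes polycyclic aromatic compounds, had the largest rise among called genes with a mean count of at least 50. Its promoter and that of ALDH1A3 are printed because both genes belong to the AHR targets listed here and both were called. Each line gives the RefSeq window from 250 bases before to 50 bases after the annotated start on GRCh38.p14 (chr15:74725479-74725778, minus strand for CYP1A1, and chr15:100879581-100879880, plus strand for ALDH1A3), with the AHR core GCGTG in capitals on either strand.
CYP1A1: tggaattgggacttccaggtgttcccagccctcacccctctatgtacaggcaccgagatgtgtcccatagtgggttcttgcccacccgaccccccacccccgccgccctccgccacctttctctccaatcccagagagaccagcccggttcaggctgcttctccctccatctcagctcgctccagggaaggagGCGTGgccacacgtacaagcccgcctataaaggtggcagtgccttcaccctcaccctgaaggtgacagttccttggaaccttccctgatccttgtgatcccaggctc
ALDH1A3: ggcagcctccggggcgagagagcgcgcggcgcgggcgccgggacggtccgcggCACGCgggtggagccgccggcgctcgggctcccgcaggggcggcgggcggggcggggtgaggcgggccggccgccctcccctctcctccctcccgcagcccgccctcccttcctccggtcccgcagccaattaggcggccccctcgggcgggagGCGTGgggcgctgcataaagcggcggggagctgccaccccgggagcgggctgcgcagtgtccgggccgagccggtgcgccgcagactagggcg
CYP1A1 holds 1 core from -57 to -53 relative to the start, and ALDH1A3 holds 2, from -197 to -193 on the opposite strand (written CACGC) and from -43 to -39. In the deposited gene positions ALDH1A3 starts at 100877714, upstream of its printed window, so that window lies inside the gene as counted. The core GCGTG was found on either strand in 36.3% of 27305 promoters of this length, and in 9 of the 13 AHR targets matched to a promoter. Among the genes called higher, 47 of 102 with a promoter held it. A match is a description of the letters and not a binding site.

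CYP1A1 stood at 105 and 97.3 normalized CPM in the 2 libraries of TNF with liproxstatin-1, against 5.04, 5.67 and 6.03 in the 3 of TNF with ferrostatin-1. The groups were far apart and each was tight. The difference was 18.1-fold (log2 difference 4.18 ± 0.21 (SE), adjusted p = 2.43e-06). In the deposited table the gene lies on chromosome 15, positions 74719542 to 74725536. CYP1B1, a related monooxygenase that hydroxylates estrogens and aromatic compounds (chromosome 2, positions 38066973 to 38076154), had 171 and 178 CPM with liproxstatin-1, against 61.7, 61.5 and 63.4 with ferrostatin-1. Its 5 libraries fell into separate groups of like values, and its log2 difference was 1.49 ± 0.15 (adjusted p = 8.74e-04). ALDH1A3, an aldehyde dehydrogenase that makes retinoic acid (chromosome 15, positions 100877714 to 100916626), had 259.9 and 263 CPM with liproxstatin-1, against 74.7, 77.3 and 74.1 with ferrostatin-1. That is a 3.47-fold difference (log2 difference 1.79 ± 0.09 (SE), adjusted p = 2.43e-06). On a per-length scale, the deposited FPKM averaged 30.1 ± 1.59 for CYP1A1, 29.2 ± 0.765 for CYP1B1 and 49.2 ± 0.384 for ALDH1A3 with TNF and liproxstatin-1 (SD, n = 2), against 1.67 ± 0.162, 10.5 ± 0.238 and 14.3 ± 0.29 with TNF and ferrostatin-1 (SD, n = 3). All 3 genes are stable.

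These 3 were the called members of 15 AHR targets (20%, against 0.681% of all genes called higher). Of the 15, 12 were positive, and the median log2 difference was 0.27, against 0.00 over all genes tested. TIPARP, an ADP-ribosylating repressor of AHR, had 149 and 145 CPM with liproxstatin-1, against 96.8, 111 and 103 with ferrostatin-1 without overlap, but its difference of 0.51 was not called (adjusted p = 0.216). NQO1, a quinone reductase under AHR and NRF2, was not called either (log2 difference -0.25, 95% interval -0.51 to 0.02). AHRR, the AHR repressor, stayed under 1 CPM in all 5 libraries, and CYP1A2 had 0 and 0.218 CPM with liproxstatin-1, against 0.064, 0 and 0 with ferrostatin-1, too few counts for a fold. None of 7 genes for the AHR protein and its partners was called. AHR itself stood at 71.5 and 79.2 CPM with liproxstatin-1, against 75.6, 73 and 79.8 with ferrostatin-1, so the groups overlapped. The 95% interval of its log2 difference was -0.45 to 0.42. That interval rests on a spread shared by all 14 libraries, and with TNF alone AHR was uneven, at 38.6 and 74.5 CPM.

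The other groups of the series place these levels. CYP1A1 averaged 91 ± 20.6 CPM with TNF alone (SD, n = 2) and 89.6 ± 24.5 in control cells (SD, n = 3), near the level of TNF with liproxstatin-1 and far above that of TNF with ferrostatin-1. Against TNF alone its log2 difference was 0.15 ± 0.22 with TNF and liproxstatin-1 (adjusted p = 0.741) and -4.03 ± 0.21 with TNF and ferrostatin-1 (adjusted p = 3.49e-06), values that share the TNF libraries. ALDH1A3 had the same order, with 255 CPM on average with TNF alone, and log2 differences from TNF of 0.03 ± 0.10 with TNF and liproxstatin-1 (adjusted p = 0.876) and -1.76 ± 0.09 with TNF and ferrostatin-1 (adjusted p = 3.49e-06). CYP1B1 averaged 147 CPM with TNF alone, from unequal libraries at 113 and 180.4. Its log2 difference from TNF was 0.25 ± 0.17 with TNF and liproxstatin-1 (adjusted p = 0.4) and -1.24 ± 0.15 with TNF and ferrostatin-1 (adjusted p = 0.00403). In these 3 genes the group farther from TNF alone was TNF with ferrostatin-1.

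**Figure D2:**
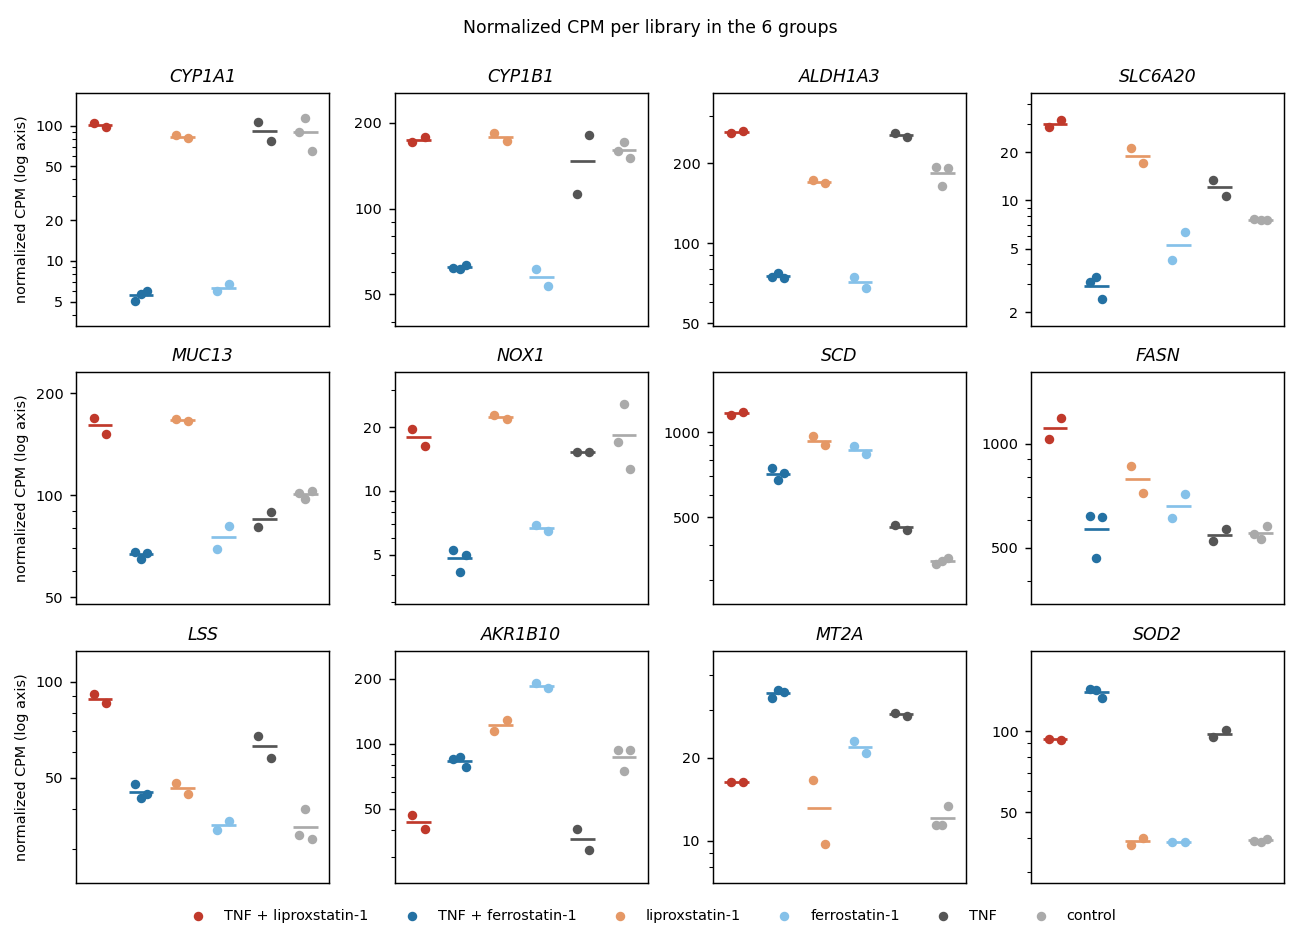
Normalized CPM (vertical log axes) of 12 genes in every library, with a point per library and a bar at each group's mean; groups run from left to right as TNF with liproxstatin-1, TNF with ferrostatin-1, liproxstatin-1, ferrostatin-1, TNF alone and control. For CYP1A1 the ferrostatin-1 libraries lie at 5.04 to 6.71 with or without TNF, while all other libraries lie at 65.1 or above.

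Lipid synthesis, and sterol synthesis above all, held several genes higher with TNF and liproxstatin-1 than with TNF and ferrostatin-1. Of 27 genes of cholesterol synthesis, uptake and control 8 rose, none fell and 26 had a positive difference, with a median of 0.63 on the log2 scale against 0.00 over all genes. Those described here lie along the pathway from HMGCS1, an early synthase, to DHCR7 at its end. LSS, which closes the sterol rings, had 91.3 and 85.7 CPM with liproxstatin-1, against 47.9, 43.2 and 44.4 with ferrostatin-1. The groups did not overlap, and the difference was 0.97 ± 0.11 (adjusted p = 0.00237). DHCR7, the reductase of the last step to cholesterol, had 248 and 250.2 CPM with liproxstatin-1, against 155, 128 and 143 with ferrostatin-1 (log2 difference 0.81 ± 0.10 (SE), adjusted p = 0.00498). SQLE, the squalene epoxidase, had 296 and 302 CPM with liproxstatin-1, against 187, 164 and 167 with ferrostatin-1 (log2 difference 0.79 ± 0.11 (SE), adjusted p = 0.00556). CYP51A1, the lanosterol demethylase, had 89.5 and 88.6 CPM with liproxstatin-1, against 58.1, 59 and 56.1 with ferrostatin-1 (log2 difference 0.63 ± 0.10 (SE), adjusted p = 0.0175). HMGCS1 was 1.02 ± 0.21 higher (adjusted p = 0.048) and the methylsterol oxidase MSMO1 0.75 ± 0.14 (adjusted p = 0.039).

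Among the 19 uncalled sterol genes, INSIG1, which holds SREBP in the endoplasmic reticulum, had 95.8 and 90.7 CPM with liproxstatin-1, against 37.7, 35.7 and 34.7 with ferrostatin-1, without overlap, and a difference of 1.37 ± 0.29 (adjusted p = 0.0624). The factor SREBF2 differed by 0.38 (95% interval 0.13 to 0.62). The count of called sterol genes fell to 3, 3 and 3 without ferrostatin-1 library 1, 2 or 3 of the TNF-treated cells. It fell further without either liproxstatin-1 library, which left 1 library in that group. The count thus depended on every library, and fits with fewer libraries have less power. With the TNF libraries without a compound left out of the shared fit, 13 were called higher (48.1%, against 1.57% of all genes in that fit), where the main fit called 8 (29.6%, against 0.681% of all genes). A fit of the 5 libraries alone called 18 higher (66.7%, against 2.15% of all genes in that fit). With limma voom 20 were called higher (74.1%, against 2.84% of all genes).

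SCD, which puts the double bond into saturated fatty acids and makes them monounsaturated (chromosome 10, positions 100347233 to 100364826), was the most stable of the lipid genes. Its levels were 1149 and 1181 CPM with TNF and liproxstatin-1, against 747, 675 and 719 with TNF and ferrostatin-1. The difference of 0.71 ± 0.07 (adjusted p = 8.74e-04) was small beside that of CYP1A1 but well beyond the spread. SCD averaged 461 CPM with TNF alone and 350.0 in control cells, so both compound groups lay above TNF alone, by 1.34 ± 0.08 on the log2 scale with liproxstatin-1 (adjusted p = 3.27e-05) and by 0.63 ± 0.07 with ferrostatin-1 (adjusted p = 0.00343). FASN, the fatty acid synthase, had 1030.4 and 1184 CPM with liproxstatin-1, against 618, 466 and 613 with ferrostatin-1 (log2 difference 0.97 ± 0.13 (SE), adjusted p = 0.00556). In deposited FPKM, SCD averaged 223 and FASN 119 with TNF and liproxstatin-1, against 138 and 61.5 with TNF and ferrostatin-1.

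Of 28 genes of fatty acid synthesis and desaturation 4 rose (14.3%, against 0.681% of all genes) and 1 fell (3.57%, against 0.0857%), with a median of 0.20. Beside SCD and FASN, the rises were ACSL1, an acyl-CoA synthetase, at 87.9 and 85.8 CPM with liproxstatin-1, against 56.7, 50.6 and 51 with ferrostatin-1 (log2 difference 0.72 ± 0.10 (SE), adjusted p = 0.00538), and LPIN1, a phosphatidate phosphatase (log2 difference 0.58 ± 0.12 (SE), adjusted p = 0.0491). ACSL5, another acyl-CoA synthetase, fell, at 498 and 503 CPM with liproxstatin-1, against 729.5, 745 and 709.5 with ferrostatin-1 (log2 difference -0.54 ± 0.08 (SE), adjusted p = 0.00926). The isoenzymes ACSL1 and ACSL5 thus differed in opposite directions. FASN lost its call without liproxstatin-1 library 2 of the TNF-treated cells, and ACSL1 and ACSL5 without either liproxstatin-1 library (highest adjusted p of 0.105, 0.0983 and 0.118). PPARG, a nuclear receptor of fatty acids, rose (log2 difference 0.53 ± 0.09 (SE), adjusted p = 0.0254), whereas PDK4, a kinase that shuts pyruvate dehydrogenase and follows fatty acid receptors, fell, with 9.39 and 7.89 CPM with liproxstatin-1, against 24.1, 26.1 and 29.1 with ferrostatin-1 (log2 difference -1.61 ± 0.28 (SE), adjusted p = 0.0256).

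**Figure D3:**
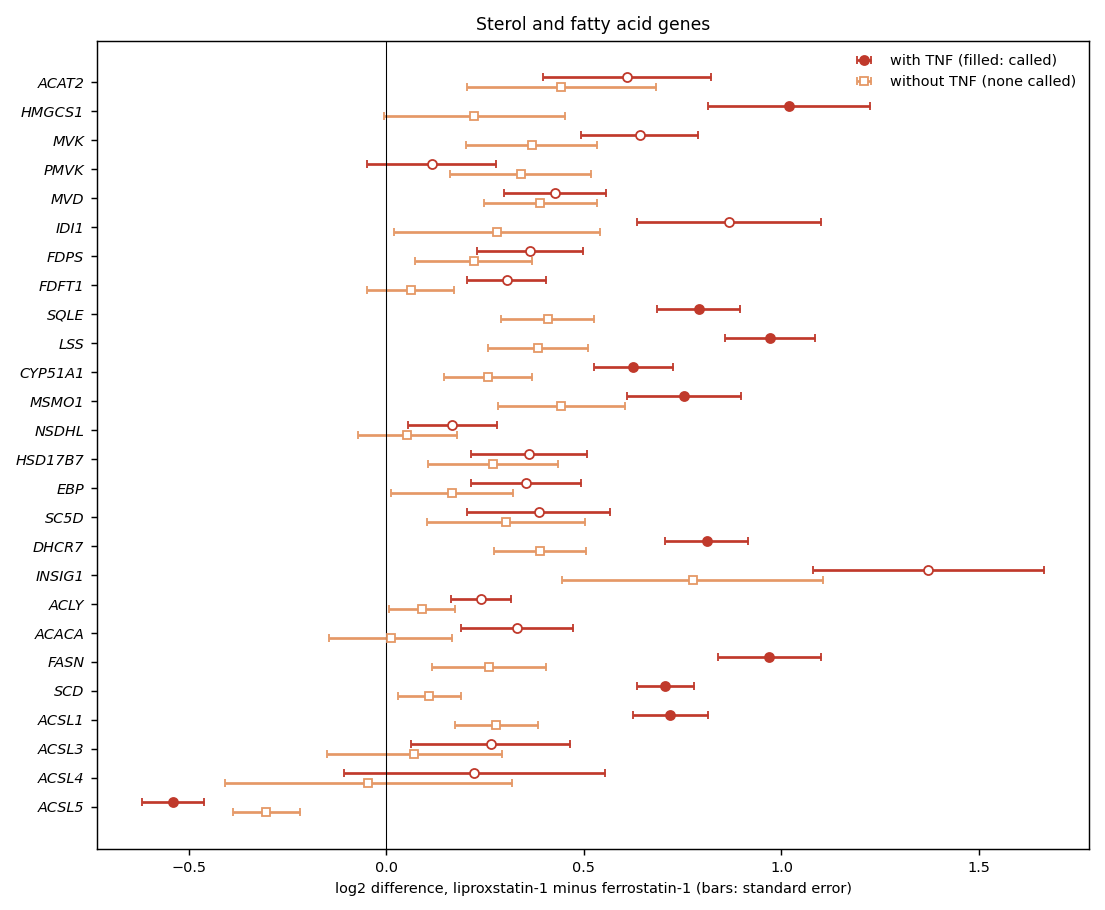
Log2 difference (liproxstatin-1 minus ferrostatin-1, horizontal axis, bars are standard errors) of 26 sterol and fatty acid genes, in pathway order from top to bottom. Red circles are TNF-treated cells, filled where called, and orange squares are cells without TNF, where none was called; most red circles lie to the right of their squares, and ACSL5 lies left of 0.

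Some genes of the epithelial surface were also among the rises. SLC6A20, a sodium-dependent carrier of proline and other imino acids (chromosome 3, positions 45755449 to 45796536), had 28.8 and 31.5 CPM with liproxstatin-1, against 3.07, 3.31 and 2.44 with ferrostatin-1. No library came near the other group, and the difference was 10.3-fold (log2 difference 3.36 ± 0.20 (SE), adjusted p = 8.36e-06). With TNF alone it averaged 12 CPM and in control cells 7.58, so the compound groups lay on either side of TNF alone: by 1.33 ± 0.21 with liproxstatin-1 (adjusted p = 0.0301) and -2.03 ± 0.19 with ferrostatin-1 (adjusted p = 8.58e-04), both against the same TNF libraries. MUC13, a membrane-bound mucin of the gut, had 169 and 152 CPM with liproxstatin-1, against 68.3, 65.1 and 67.4 with ferrostatin-1 (log2 difference 1.26 ± 0.09 (SE), adjusted p = 5.14e-05). SLC6A20 and MUC13 are stable. Of 8 transmembrane mucins tested 3 rose (37.5%, against 0.681% of all genes, median 0.65). They were MUC13, MUC20 (0.79 ± 0.15, adjusted p = 0.0322) and MUC1 (1.16 ± 0.23, adjusted p = 0.0455). MUC20 and MUC1 lost their calls whichever of the 5 libraries was left out.

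Of 18 absorptive enterocyte markers 9 had a positive and 7 a negative difference (median 0.17), and 3 rose (16.7%, against 0.681% of all genes). They were MUC13, the adhesion protein CEACAM7, at 3.81 and 3.18 CPM with liproxstatin-1, against 0.897, 0.512 and 1.31 with ferrostatin-1 (log2 difference 1.95 ± 0.34 (SE), adjusted p = 0.0254), and villin (VIL1), the actin bundler of microvilli, at 141 and 134 CPM with liproxstatin-1, against 106, 96.1 and 104 with ferrostatin-1 (log2 difference 0.43 ± 0.08 (SE), adjusted p = 0.0322). MYO7B, a myosin of the microvillar tip, was low but stable, with 3.17 and 2.91 CPM with liproxstatin-1, against 0.592, 0.775 and 0.866 with ferrostatin-1 (log2 difference 2.03 ± 0.19 (SE), adjusted p = 7.51e-04). In control cells MYO7B averaged 8.95 CPM, above every TNF-treated group. NOX1, the superoxide-making NADPH oxidase of colon epithelium, had 19.6 and 16.3 CPM with liproxstatin-1, against 5.3, 4.16 and 5.01 with ferrostatin-1, separate groups with a 3.73-fold difference (log2 difference 1.9 ± 0.23 (SE), adjusted p = 0.0032). It lost its call only without liproxstatin-1 library 1 of the TNF-treated cells (adjusted p = 0.0523). Its partner NOXO1, a subunit that switches the oxidase on, was not called (-0.18, 95% interval -0.87 to 0.50). Of 17 goblet and secretory markers 1 rose (5.88%, against 0.681% of all genes, median 0.28). It was CREB3L1, a secretory pathway factor (log2 difference 0.60 ± 0.12 (SE), adjusted p = 0.0493). Of 20 Wnt targets and stem cell genes 10 had a positive and 9 a negative difference (median 0.03), and 2 rose (10%, against 0.681% of all genes). These were DKK1, a secreted Wnt inhibitor (1.06 ± 0.20, adjusted p = 0.0322), and the Wnt-induced factor SP5 (1.12 ± 0.22, adjusted p = 0.0447).

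Other large rises had no list in common. LRRN4, a neuronal leucine-rich repeat protein, had 18.3 and 19.7 CPM with liproxstatin-1, against 3.97, 2.81 and 4.19 with ferrostatin-1 (log2 difference 2.38 ± 0.23 (SE), adjusted p = 7.51e-04). KCNF1, a modifier subunit of potassium channels, had 4.66 and 3.78 CPM with liproxstatin-1, against 1.23, 1.33 and 1.13 with ferrostatin-1 (log2 difference 1.77 ± 0.21 (SE), adjusted p = 0.00237). Both are stable. ELN, which encodes elastin, had 2.47 and 2.27 CPM with liproxstatin-1, against 0.512, 0.678 and 0.834 with ferrostatin-1 and the receptor MRGPRE 5.03 and 4.82 CPM with liproxstatin-1, against 1.28, 1.25 and 1.05 with ferrostatin-1, and neither overlapped between groups (adjusted p = 0.00876 and 0.0119). SFMBT2, a Polycomb protein, was low, at 1.98 and 1.61 CPM with liproxstatin-1, against 0.224, 0.526 and 0.157 with ferrostatin-1 (log2 difference 2.55 ± 0.51 (SE), adjusted p = 0.0447). Of 48 lysosomal genes 2 rose (4.17%, against 0.681% of all genes), 37 were positive and the median was 0.21. The rises were the sialidase NEU1 and the fucosidase FUCA1 (0.53 ± 0.10, adjusted p = 0.0426). NEU1 had 162 and 162 CPM with liproxstatin-1, against 89.8, 91.7 and 84.7 with ferrostatin-1 (log2 difference 0.87 ± 0.11 (SE), adjusted p = 0.0032). SLC3A1, a subunit of a cystine carrier, was called from uneven libraries, at 2.89 and 0.381 CPM with liproxstatin-1, against 0, 0.0415 and 0.0315 with ferrostatin-1, and its fitted difference is therefore not printed as a size. It overlaps PREPL on the opposite strand.

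The 19 genes lower with TNF and liproxstatin-1 included antioxidant and metal-binding genes. Of 41 NRF2 targets 2 fell (4.88%, against 0.0857% of all genes) and none rose. A negative difference was found for 33 of them (median -0.23), and for 10966 of all 22179 genes. AKR1B10, an aldo-keto reductase of aldehydes and retinal, had 46.7 and 40.3 CPM with liproxstatin-1, against 84.8, 87.1 and 78 with ferrostatin-1 (log2 difference -0.94 ± 0.13 (SE), adjusted p = 0.00832). AKR1C2, a hydroxysteroid dehydrogenase, had 16.9 and 13.1 CPM with liproxstatin-1, against 25.8, 33.7 and 30.3 with ferrostatin-1 (log2 difference -1.0 ± 0.17 (SE), adjusted p = 0.0254). Neither overlapped between groups. AKR1C1, its near-identical neighbour, was not called (-0.88 ± 0.22, adjusted p = 0.131), and reads may be split between such copies. AKR1B10 averaged 36.2 CPM with TNF alone, and its log2 difference from TNF was 0.26 ± 0.14 with liproxstatin-1 (adjusted p = 0.29) and 1.2 ± 0.14 with ferrostatin-1 (adjusted p = 0.00258). AKR1B10 lost its call without either liproxstatin-1 library of the TNF-treated cells, and AKR1C2 in 4 of the 5 fits that left out a library. GCLM, the modifier subunit of glutathione synthesis, and TXNRD1, a thioredoxin reductase, were not called (-0.55 and -0.44, adjusted p = 0.0752 and 0.194).

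Metallothioneins bind zinc and copper. Of 9 genes tested in the list of metallothioneins and zinc handling, 6 encode metallothioneins, and 2 of these fell. These 2 are 22.2% of the list, against 0.0857% of all genes called lower. The promoter of MT2A is printed since metal elements in metallothionein promoters are repeated (chr16:56608334-56608633, plus strand, RefSeq, GRCh38.p14), with matches to TGCNCNC on either strand in capitals.
MT2A: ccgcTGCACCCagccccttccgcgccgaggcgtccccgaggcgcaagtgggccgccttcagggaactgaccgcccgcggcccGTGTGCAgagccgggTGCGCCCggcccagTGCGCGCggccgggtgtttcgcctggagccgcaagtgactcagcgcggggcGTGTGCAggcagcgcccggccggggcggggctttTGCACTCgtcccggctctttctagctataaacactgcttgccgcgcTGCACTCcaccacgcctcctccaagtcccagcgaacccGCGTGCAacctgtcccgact
The window holds 8 matches, a number reached by 0.0879% of 27305 promoters, whereas 55.2% hold at least 1. All 5 genes of the list matched to a promoter hold at least 1. The match nearest the end of the window contains the letters of the AHR core and overlaps it. MT2A had 16.3 and 16.4 CPM with liproxstatin-1, against 33.1, 35.5 and 34.9 with ferrostatin-1 (log2 difference -1.08 ± 0.18 (SE), adjusted p = 0.0244), and MT1E 14.2 and 13.6 CPM with liproxstatin-1, against 29, 34.2 and 24.6 with ferrostatin-1 (log2 difference -1.07 ± 0.20 (SE), adjusted p = 0.0384). In both, each library with liproxstatin-1 was about equal to the other and under every library with ferrostatin-1. Close copies may share reads, and both lost their calls whichever of the 5 libraries was left out. The other 4 metallothioneins were weakly counted and not called, at -1.1 ± 1.59 for MT1G, -0.89 ± 0.36 for MT1X, 0.48 ± 0.83 for MT1F and 1.4 ± 1.82 for MT1A. The remaining 3 genes of the list were not called either: the zinc transporters SLC39A4 (0.05 ± 0.16) and SLC30A1 (-0.12 ± 0.20) and the metal-responsive factor MTF1 (-0.07 ± 0.12). The list's median over all 9 genes was -0.12, which is the value of SLC30A1. Without TNF no gene of the list was called, but 7 differences were negative and 2 positive, and the median was -0.73. There MT1E differed by -1.12 ± 0.22 (adjusted p = 0.104) and MT2A by -0.73 ± 0.20 (adjusted p = 0.302) on the log2 scale. MT2A was uneven there, at 16.6 and 9.72 CPM with liproxstatin-1, against 23 and 20.8 with ferrostatin-1. Both genes thus had the same direction without TNF, but neither was called there.

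SOD2, the mitochondrial superoxide dismutase and an NF-kB target, had 93.4 and 92.8 CPM with liproxstatin-1, against 143, 142 and 133 with ferrostatin-1 (log2 difference -0.58 ± 0.08 (SE), adjusted p = 0.00622). With TNF alone it averaged 97.8 CPM and in control cells 39.3, so the libraries of TNF with ferrostatin-1 lay above TNF alone. The log2 difference from TNF was -0.07 ± 0.09 with liproxstatin-1 (adjusted p = 0.671) and 0.51 ± 0.08 with ferrostatin-1 (adjusted p = 0.0102). It was the sole called gene of 52 NF-kB subunits and targets tested (1.92%, against 0.0857% of all genes called lower, median -0.07). SGPP2, a sphingosine phosphate phosphatase, had 185 and 189 CPM with liproxstatin-1, against 274, 286 and 294 with ferrostatin-1 (log2 difference -0.61 ± 0.08 (SE), adjusted p = 0.00626), and TSC22D1, a leucine zipper factor, 249.58 and 249.96 CPM with liproxstatin-1, against 404, 440.2 and 421 with ferrostatin-1 (log2 difference -0.76 ± 0.11 (SE), adjusted p = 0.00723). For both, TNF alone averaged 278 and 443 CPM, close to TNF with ferrostatin-1. SOD2, SGPP2 and TSC22D1 lost their calls without either liproxstatin-1 library of the TNF-treated cells (highest adjusted p of 0.112, 0.105 and 0.105).

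Several other genes were lower as well. JUN, a subunit of AP-1, was the sole called gene of 24 immediate early genes (4.17%, against 0.0857% of all genes called lower). It had 86.2 and 89.9 CPM with liproxstatin-1, against 121, 134 and 132 with ferrostatin-1 (log2 difference -0.55 ± 0.10 (SE), adjusted p = 0.0254). MXI1, an antagonist of MYC, and A4GALT, which makes the globotriaosyl glycolipid, fell by 0.75 ± 0.13 and by 0.88 ± 0.16 on the log2 scale (adjusted p = 0.0225 and 0.0324). LRRC31, a leucine-rich repeat protein of epithelia, had 1.5 and 1.36 CPM with liproxstatin-1, against 5.75, 6.97 and 6.34 with ferrostatin-1 (log2 difference -2.15 ± 0.38 (SE), adjusted p = 0.0256). The homeobox gene HOXC12 had 0.766 and 1.54 CPM with liproxstatin-1, against 3.99, 3.82 and 3.35 with ferrostatin-1 and the forkhead gene FOXL1 2.84 and 4.14 CPM with liproxstatin-1, against 6.61, 8.13 and 7.89 with ferrostatin-1, without overlap (adjusted p = 0.0225 and 0.0364). The pseudogene CYP2B7P, at 2.14 and 1.65 CPM with liproxstatin-1, against 3.36, 5.02 and 5.01 with ferrostatin-1, shares sequence with its parent gene. AL662899, which overlaps CSNK2B, was uneven among the libraries with ferrostatin-1, at 0.313 and 0.136 CPM with liproxstatin-1, against 6.84, 0.885 and 6.97 with ferrostatin-1.

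Genes of ferroptosis itself mostly showed no called difference. Of 30 suppressors 2 rose (6.67%, against 0.681% of all genes), SCD and PPARG, and the median was -0.01. Of 29 drivers and markers 1 rose (3.45%), NOX1, and the median was also -0.01. GPX4, the peroxidase that repairs lipid hydroperoxides, had 258 and 226 CPM with liproxstatin-1, against 218, 213 and 195 with ferrostatin-1, and the 95% interval of its log2 difference was -0.06 to 0.49. SLC7A11, the cystine carrier that feeds glutathione synthesis, had 91.8 and 102 CPM with liproxstatin-1, against 109.6, 138 and 132 with ferrostatin-1, with an interval of -1.12 to 0.35. The intervals were -0.50 to 0.11 for AIFM2 (FSP1, a reductase of coenzyme Q) and -0.50 to 0.94 for ACSL4, which loads polyunsaturated fatty acids. For LPCAT3, which puts them into phospholipids, the interval was -0.21 to 0.21, with overlapping groups at 47.3 and 48.5 CPM with liproxstatin-1, against 49.2, 45.3 and 48.9 with ferrostatin-1. TFRC, the transferrin receptor, had an interval of -0.55 to 1.04, and none of 24 iron-handling genes was called. HMOX1, the heme-degrading oxygenase, had 10.5 and 9.25 CPM with liproxstatin-1, against 11.1, 17.5 and 19.3 with ferrostatin-1 and was not called (-0.70 ± 0.26, adjusted p = 0.4). PTGS2, a prostaglandin synthase used as a ferroptosis marker, had 18.1 and 17.2 CPM with liproxstatin-1, against 11, 12.5 and 12.8 with ferrostatin-1 (interval -0.02 to 1.11), and CHAC1, a glutathione-degrading enzyme, 9.63 and 9.73 CPM with liproxstatin-1, against 15.1, 18.8 and 16.2 with ferrostatin-1 (interval -1.37 to -0.21). The intervals of GPX4, AIFM2 and LPCAT3 lie within the size of the SCD difference in either direction, whereas those of SLC7A11, ACSL4, TFRC, PTGS2 and CHAC1 reach it, so a difference of that size is not excluded for them. The CHAC1 interval lies wholly under 0 before adjustment, and CHAC1 was not called (adjusted p = 0.342).

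Genes of TNF signalling and cell death likewise showed few called differences. TNFAIP3, the NF-kB feedback inhibitor, had overlapping groups at 106 and 116 CPM with liproxstatin-1, against 113, 114 and 122 with ferrostatin-1 (interval -0.32 to 0.19), against an average of 5.8 in control cells. CXCL8, a neutrophil chemokine, had 75.3 and 70.2 CPM with liproxstatin-1, against 102, 107 and 101 with ferrostatin-1, without overlap, but was not called (-0.51 ± 0.13, adjusted p = 0.151). The adhesion molecule ICAM1 had 165 and 181 CPM with liproxstatin-1, against 225, 208 and 220.1 with ferrostatin-1 (adjusted p = 0.315), and CXCL10, an interferon-induced chemokine, overlapped between groups. The receptor TNFRSF1A had an interval of -0.51 to 0.11. Of 32 pro-apoptotic genes and caspases 1 rose (3.12%, against 0.681% of all genes). It was BMF, a BH3-only death protein, at 53.9 and 58.3 CPM with liproxstatin-1, against 32, 36 and 35 with ferrostatin-1 (log2 difference 0.71 ± 0.12 (SE), adjusted p = 0.0254). BMF averaged 64.4 CPM with TNF alone and 26.7 in control cells. CASP8, the caspase at the TNF receptor, had 60.0 and 59.9 CPM with liproxstatin-1, against 61.7, 65.9 and 62.5 with ferrostatin-1 with an interval of -0.29 to 0.13. Among 17 anti-apoptotic genes none was called. The interval was -0.06 to 0.29 for CFLAR, the inhibitor of CASP8, and -1.26 to 0.77 for BIRC3, an inhibitor of apoptosis protein.

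The remaining lists held few calls or none. Among all genes tested 0.766% were called, so an empty list of this size is near that share. The ATF4 stress response, which answers amino acid shortage, had no called gene among 45, and 40 differences were negative and the median was -0.32. ASNS, the asparagine synthetase, was at 99 and 97.9 CPM with liproxstatin-1, against 173, 221 and 169.6 with ferrostatin-1 without overlap (-0.93 ± 0.23, adjusted p = 0.121). In a fit of the 5 libraries alone 14 of 44 ATF4 genes were called lower (31.8%, against 0.711% of all genes in that fit), and 8 of 45 were with limma voom (17.8%, against 0.825% of all genes). Interferon-stimulated genes had none called of 57 and a median of 0.05. Without TNF none of them was called either, but all 57 were positive, with a median of 0.47 against -0.01 over all genes. None was called among 46 DNA replication genes (median -0.01) or 32 mitosis genes (30 positive, median 0.19). The same held for 20 p53 targets, 21 MHC class I genes, 10 MHC class II genes, 17 epithelial chemokines, 14 keratins and 17 tight junction genes. It also held for 15 heat shock genes, 29 glycolysis and hypoxia genes, 23 drug metabolism genes, 20 necroptosis and pyroptosis genes and 13 prostaglandin genes. The keratin KRT81 was uneven, at 13.5 and 1.85 CPM with liproxstatin-1, against 1.47, 1.73 and 1.79 with ferrostatin-1, as was KRT7, at 31 and 13.5 CPM with liproxstatin-1, against 15, 13.9 and 11.6 with ferrostatin-1, and neither was called. Single called genes stood in the lists of LXR receptors and targets (SCD, while the cholesterol exporter ABCA1 was not called at -0.64 ± 0.28, adjusted p = 0.538), ER chaperones and stress factors (CREB3L1) and mitochondrially encoded genes (MT-ND3, a complex I subunit, 0.39 ± 0.08, adjusted p = 0.0425). The counts of the remaining lists stand beside their medians in the plot of gene lists.

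**Figure D4:**
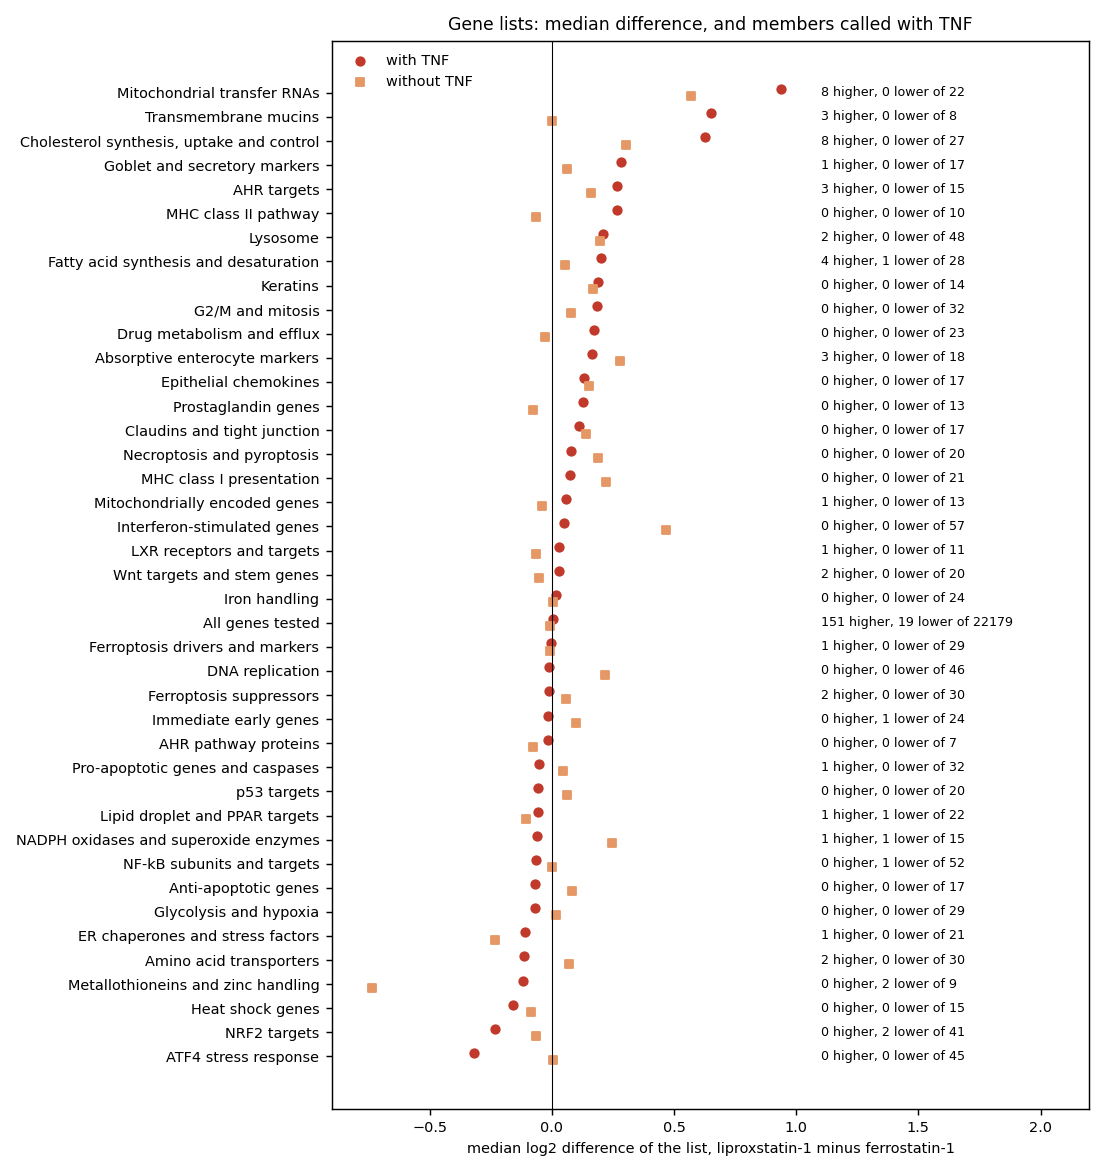
Median log2 difference (liproxstatin-1 minus ferrostatin-1, horizontal axis) of 40 gene lists and of all genes tested, in TNF-treated cells (red circles) and without TNF (orange squares), with the number of members called in TNF-treated cells printed at the right. The cholesterol list and transmembrane mucins lie at 0.63 and 0.65 in TNF-treated cells and the ATF4 stress response at -0.32, while interferon-stimulated genes lie at 0.05 with TNF and 0.47 without it.

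Some called genes cannot be read at face value, because it is not stated whether the counting used strand. IGFL2-AS1, at 18.9 and 17.7 CPM with liproxstatin-1, against 2.66, 3.1 and 3.83 with ferrostatin-1 (log2 difference 2.52 ± 0.21 (SE), adjusted p = 2.42e-04), is stable but overlaps the called AC006262 and the called pseudogene IGFL1P1 on the opposite strand. CYP1B1-AS1 lies across from CYP1B1 and was uneven, at 14.5 and 19.4 CPM with liproxstatin-1, against 5.89, 2.46 and 2.72 with ferrostatin-1 (adjusted p = 0.0175). AL033397, called lower, at 1.75 and 1.82 CPM with liproxstatin-1, against 5.56, 5.44 and 5.71 with ferrostatin-1, overlaps GCLC on the opposite strand. Of 22 mitochondrial transfer RNAs 8 rose (36.4%, against 0.681% of all genes, median 0.94), a list chosen after its values were seen. Such short transcripts are poorly held by libraries of poly(A) RNA, and MT-TT had 9.73 and 9.46 CPM with liproxstatin-1, against 4.66, 4.57 and 4.36 with ferrostatin-1. A further 3 called genes had 0 counts in a whole group, and no fold is given for them. They were AL772307, listed at 0 in both libraries of TNF with liproxstatin-1, and NCLP1 and 1 of the 2 entries named AC104958, listed at 0 in all 3 of TNF with ferrostatin-1.

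The same pair of compounds was set side by side without TNF, in 4 libraries that the TNF comparison does not share. There 23 genes were called (0.104% of those tested), 19 higher (0.0857%) and 4 lower (0.018%) with liproxstatin-1. Of these, 17 differed at least 2-fold (0.0766%), and 1444 genes had an unadjusted p under 0.05 (6.51%). Of the 170 genes called in TNF-treated cells, 17 were also called without TNF, all in the same direction. These were ADGRF1, AKR1C2, ALDH1A3, CYP1A1, CYP1B1, F2R, HTR1D, MUC13, NOX1, PIK3AP1, SLC6A20, TNS4, VIPR1, ZBTB7C, MT-TG, MT-TT and AC006262. Without TNF, CYP1A1 had 84.9 and 80.4 CPM with liproxstatin-1, against 5.94 and 6.71 with ferrostatin-1 (log2 difference 3.71 ± 0.25, adjusted p = 9.59e-05). ALDH1A3 had 173 and 168 CPM, against 74.7 and 68 (1.26 ± 0.10, adjusted p = 3.11e-04), and MUC13 168 and 165 CPM, against 69.7 and 81.4 (1.14 ± 0.10, adjusted p = 9.38e-04). The 23 calls became 7 and 17 without liproxstatin-1 library 1 or 3, and 3 and 12 without ferrostatin-1 library 1 or 3 of the cells without TNF.

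Of the 151 genes called higher in TNF-treated cells 144 also had a positive difference without TNF, where 47.6% of all genes did. Of the 19 called lower 18 had a negative one, where 51.6% of all genes did. The median difference of the genes called higher was 0.90 with TNF and 0.46 without, and that of the genes called lower was -1.07 with TNF and -0.61 without. The genes were chosen on their size in TNF-treated cells, so a smaller size without TNF is not read as an effect of TNF. The 8 genes with opposite signs were SOD2, HPN, IGSF10, KLHDC7A, HS3ST1, DAPK1, TPPP and TP53INP2. SCD was among the genes with small differences without TNF, with 967 and 900.2 CPM with liproxstatin-1, against 895 and 837 with ferrostatin-1 (0.11 ± 0.08). SOD2 had 37.9 and 40.0 CPM, against 38.7 and 38.9 (95% interval of the log2 difference -0.18 to 0.19). Of the 27 sterol genes none was called without TNF, all 27 differences were positive and the median was 0.30, against -0.01 over all genes.

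**Figure D5:**
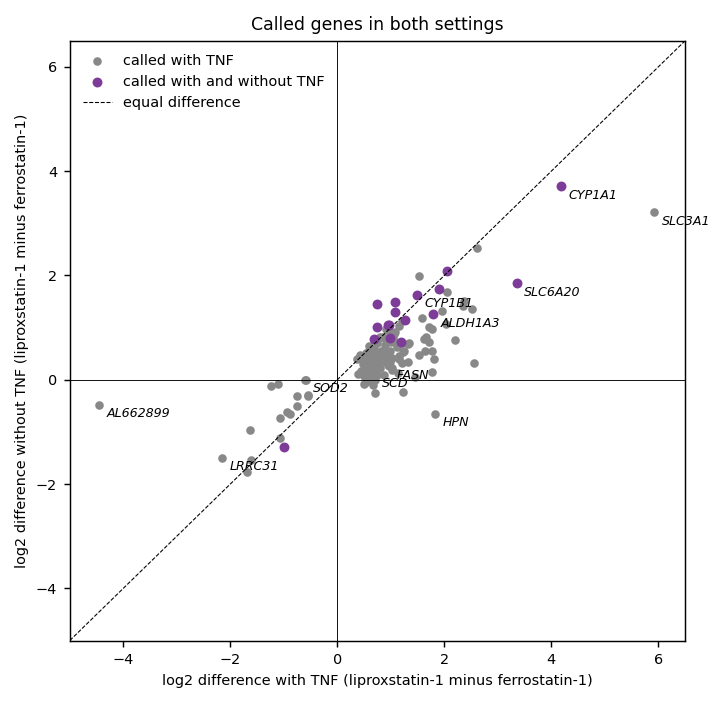
Log2 difference (liproxstatin-1 minus ferrostatin-1) with TNF (horizontal axis) and without TNF (vertical axis) for 167 called genes with counts in both TNF-treated groups. Purple points are the 17 genes called in both settings, grey points the others, and the dashed line marks equal differences; most points lie in the quadrants of like sign, SCD and SOD2 lie near the horizontal zero line and HPN lies below it.

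Whether the difference between the compounds itself differed with TNF was tested as an interaction. No gene was called by edgeR (lowest adjusted p = 0.329), 879 genes had an unadjusted p under 0.05 (3.96%), and DESeq2 called 19 and limma voom 8. SCD and SLC6A20 were among the 10 smallest p-values (unadjusted p = 1.27e-04 and 2.03e-04), with interaction terms of 0.60 ± 0.11 and 1.51 ± 0.29 that did not pass the adjustment (adjusted p = 0.417 and 0.563). SOD2 was also among them (-0.59 ± 0.12, adjusted p = 0.582). TCN1, a vitamin B12 binder, had 3.91 and 3.72 CPM with liproxstatin-1, against 6.0, 4.27 and 4.05 with ferrostatin-1 in TNF-treated cells and 8.03 and 9.44 with liproxstatin-1, against 3.44 and 3.4 with ferrostatin-1, without TNF. PLA2G4C, a phospholipase A2, had 3.67 and 4.0 CPM with liproxstatin-1, against 6.37, 5.6 and 4.19 with ferrostatin-1 in TNF-treated cells, and all its levels without TNF were under 1 CPM. AP002990, a locus known by a clone name, had 58 and 92.6 CPM with liproxstatin-1, against 258, 109.9 and 316 with ferrostatin-1 in TNF-treated cells and 436 and 470.1 with liproxstatin-1, against 107 and 70.8 with ferrostatin-1, without TNF. The other 4 of the 10 were MIR3615, DISP3, AC104958 and AL772307, all near or under 1 CPM in each library. SLC38A4, an amino acid carrier called lower without TNF (-2.73 ± 0.30), had 1.78 and 2.04 CPM with liproxstatin-1, against 3.36, 3.35 and 4.57 with ferrostatin-1 in TNF-treated cells and was not called there (adjusted p = 0.185). For CYP1A1 the interaction term was 0.47 with a 95% interval of -0.19 to 1.13, and for CYP1B1 -0.14 with -0.64 to 0.36.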

How the data were processed

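Libraries were dUTP-stranded, from poly(A) RNA, and read from both ends, per the labels' protocols. The table the authors deposited covers 36555 gene IDs. The counts, tested here, are the authors' whole numbers per gene without scaling. FPKM values, per the file headers, are fragments scaled by transcript length and library size, and were used to set levels of different genes side by side. FPKM columns of 6 libraries could not be used because their numbers do not match the titles. StringTie 1.3.4d, HISAT2 2.0.4 and cutadapt 1.9 are listed in the submitters' processing notes, as are DESeq2 and edgeR, without their roles. No build or counting program is named, nor whether strand was used. Gene positions are those of the deposited table, of whose IDs 35518 are in GENCODE release 29, 28114 with the same start.

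Counts of all 14 libraries were fitted in 1 model of 6 groups with edgeR 4.0.16 (R 4.3.3): TMM scaling, filterByExpr, quasi-likelihood test, Benjamini-Hochberg adjustment over 22179 genes, threshold 0.05. The 3 comparisons were of the compounds with TNF, without TNF, and their interaction. Standard errors are the log2 difference divided by the square root of F, and 95% intervals are t intervals built on them, both approximate near 0 counts. Normalized CPM uses TMM library sizes. Named genes were the 15 largest rises and falls among called genes with a mean count of at least 50 and no overlap, up to 4 called members per list by p, a fixed set, and the 10 smallest interaction p-values; the text's other genes were picked with their values in view. The 43 gene lists and the members were chosen with earlier results of these data known. A list of mitochondrial transfer RNAs was added after its values were seen.

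Library numbers are those of the count columns, which run 1 and 3 where the titles say 1 and 2 for TNF, liproxstatin-1 and ferrostatin-1, so those columns were matched by group. Same-numbered libraries of the TNF-treated groups did not deviate together, so the numbers were not used as pairs. Promoters came from RefSeq (GRCh38.p14) by symbol. A sterol element (TCACNCCAC, in 1.15% of all promoters) and an antioxidant element (TGACNNNGC, in 13.6%) were searched too. The sterol element was in 1 of 21 promoters of the cholesterol list, 0 of its 5 called, and 0 of 26 of the fatty acid list. The antioxidant element was in 8 of 29 NRF2 target promoters, and 0 of the 1 called. Alternatives were another scaling, 2 filters, DESeq2 1.42.0, limma 3.58.1 voom with quality weights, other sets of libraries, a 2-fold threshold, the replicate number as a block and each library left out. Leukocyte markers CD3E, CD3D, CD2 and MS4A1 were not analysed here, and some genes counted in the lists are not reported by name.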

Additional observations from a re-analysis of the deposited data

How the results depend on the processing

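The 170 calls between the compounds in TNF-treated cells became 150 under relative log expression scaling, 196 under a stricter filter, 105 with no filter, 467 with DESeq2, 813 with limma voom, 575 in a fit of the 5 libraries alone, 415 without the TNF libraries that had no compound, 71 at a 2-fold minimum, and 26 to 65 without 1 library. The same counts without TNF were 23 in the main fit, 17 at a 2-fold minimum, 211 with DESeq2, 302 with voom, 93 in a fit of the 4 libraries alone, 127 without the TNF libraries and 3 to 17 without 1 library. For the interaction (0 calls) they were 19 with DESeq2, 8 with voom, 4 in a fit of the groups compared, 1 without the TNF libraries and 0 to 3 without 1 library. With the replicate number as a block in 3 groups (control and both TNF-treated compound groups), 81 genes were called (72 higher, 9 lower), 68 of them among the 170, and 256 without the block in the same groups, a fit added after the data were seen; same-numbered libraries correlated at 0.00621 and -0.111. Of 56 called genes among the 89 named, none reversed, and 10 kept their call in all 14 alternatives (ALDH1A3, CYP1A1, CYP1B1, IGFL2-AS1, KCNF1, LRRN4, MUC13, MYO7B, SCD and SLC6A20). Reversals were confined to 5 uncalled genes: LPCAT3 (-0.0138 with relative log expression scaling, -0.00987 with no filter, -0.0135 with DESeq2, -0.00030 without the block, and -0.0467 to 0.0235 without 1 library), DISP3 (0.0748 with voom, -0.29 to 0.33 without 1 library), AHR (0.0299 with the block, -0.10 to 0.0403 without 1 library), KRT7 (-0.011 to 1.19 without 1 library) and CYP1A2 (-3.65 to 5.96 without 1 library). The cause of these changes was not tested. Called genes had little room to reverse when a library was left out, since their levels did not overlap between the groups. Scaling moved the median of all genes by under 0.1 on the log2 scale.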

Other observations

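A group of called genes outside the lists above, chosen after their values were seen and with no test of the group, encode parts of the brush border. STX3, a syntaxin of apical membrane delivery, had 214 and 204 CPM with TNF and liproxstatin-1, against 131, 125 and 114 with TNF and ferrostatin-1 (log2 difference 0.76 ± 0.08 (SE), adjusted p = 0.00138, edgeR), and it kept its call without any single library. PDZK1, an apical scaffold, had 5.47 and 6.59 CPM, against 2.24, 2.25 and 2.63, and COBL, an actin nucleator, 26 and 28.6, against 18.3, 15.2 and 18.4 (1.34 and 0.66 on the log2 scale, adjusted p = 0.0254 and 0.0384). The motor MYO1D differed by 0.53 ± 0.10 (adjusted p = 0.0322). Receptors were another such group. VIPR1, a receptor of vasoactive intestinal peptide, had 67.1 and 74.1 CPM, against 31.6, 28.8 and 32.6 (log2 difference 1.19 ± 0.09 (SE), adjusted p = 5.14e-05), and F2R, the thrombin receptor, 48.2 and 49 CPM, against 27.2, 24.2 and 22.4 (log2 difference 0.98 ± 0.10 (SE), adjusted p = 8.74e-04). Both kept their calls without any single library and were also called without TNF. HTR1D, a serotonin receptor, had 6.52 and 7.53 CPM, against 3.33, 4.0 and 2.69.

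Some enzymes of glycolipid synthesis were also picked from the called genes after their values were seen, with no list of such enzymes counted or tested. ST3GAL5, which makes the ganglioside GM3, was higher with TNF and liproxstatin-1 (log2 difference 0.82 ± 0.14 (SE), adjusted p = 0.0256), as was B3GALT5 (log2 difference 0.94 ± 0.18 (SE), adjusted p = 0.0334), while A4GALT was lower (log2 difference -0.88 ± 0.16 (SE), adjusted p = 0.0324). FLCN and RRAGC, both of the nutrient-sensing machinery of the lysosome surface, were higher by 0.72 ± 0.11 and 0.72 ± 0.12 (adjusted p = 0.013 and 0.0175). PCYT2, an enzyme of phosphatidylethanolamine synthesis, had 108 and 113 CPM, against 71.5, 63.2 and 69.1 (log2 difference 0.70 ± 0.12 (SE), adjusted p = 0.0254). ST3GAL5, B3GALT5, FLCN, RRAGC and PCYT2 each lost their call in at least 1 fit that left out a library.

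Some genes split the 2 libraries of TNF with liproxstatin-1. BLOC1S5-TXNDC5, a readthrough locus, had 17.9 and 0 CPM in libraries 1 and 2, against 0, 0 and 0 with TNF and ferrostatin-1. MIR34AHG had 17.4 and 0.0408 CPM, against 17.5, 18.5 and 17.7. VWF, an endothelial clotting factor, had 0 and 19 CPM, against 29.1, 3.02 and 4.0, and VWF was likewise uneven without TNF, at 4.76 and 0.119 CPM with liproxstatin-1, against 0.262 and 22.9 with ferrostatin-1. None of these was called.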
